A study of Mus musculus with 21 samples.

Results

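The genes described here encode the proteins of the mitochondrial ribosome. They were taken from the deposited count table as the protein-coding genes whose symbol begins with Mrpl or Mrps followed by a digit, which gave 77 of the 22048 protein-coding genes and of 47729 genes in all. Of these, 48 carry a large subunit symbol (Mrpl) and 29 a small subunit symbol (Mrps). The filter on low counts kept 76 of them in each of 2 experiments. Mrpl53 did not pass, with at most 12 counts in any library and 0 counts in every RFP single positive library. Apart from Mrpl53, no gene of the set depended on a single group to pass the filter, since the lowest count of any other gene in any library was 153 (Mrps34).

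RNA came from mouse bone marrow hematopoietic stem cells (HSCs; Kit+ Sca-1+ lineage-negative cells gated CD150+ CD48-) and was sequenced as 21 SMART-seq2 libraries in 7 groups of 3. The treatment experiment used wild-type (WT) animals and animals described as Mx1-Cre;Atg5fl/fl (Atg5-/- in the sample titles and Mx1-Cre; Atgfl/fl in the genotype field), all of which were given either bortezomib at 10 mg/kg or 10% DMSO behind the eye, 48 h before analysis and again on the following day. In the reporter experiment, untreated RFP-EGFP-LC3 mice, which carry a tandem fluorescent reporter of autophagy, supplied HSCs of 3 kinds: double negative, RFP single positive, and double positive for RFP with GFP. Bortezomib inhibits the proteasome, Atg5 is needed to attach LC3 to autophagosome membranes, and Mx1-Cre places the recombinase under an interferon-inducible promoter that is active in blood stem cells and in other tissues. The labels give no age or sex, do not say how recombination was induced, and do not say whether the libraries of a group came from separate mice, so p-values measure the spread between these libraries only.

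Atg5 was not lower in the libraries labelled as knockout. Its level was 39.9 to 74.6 CPM (counts scaled to the size of the library) in WT DMSO libraries and 107 to 114 CPM in Mx1-Cre;Atg5fl/fl DMSO libraries. A count over the whole gene does not isolate a deleted exon, and these groups are therefore called knockout-labelled below. Library totals ran from 15005500 to 31481691 counts. All 10 HSC markers examined were detected in every group. In 3 groups (WT given DMSO, WT given bortezomib, knockout-labelled given bortezomib) replicate 3 stood apart from the other libraries on the third principal component. The share of Xist in Xist plus Ddx3y counts varied within groups, from 31.8% to 90.3% in WT bortezomib and from 0% to 100% in knockout-labelled bortezomib libraries. It also differed between genotypes under DMSO, at 60.0% to 99.2% in WT and 0.234% to 0.987% in knockout-labelled libraries, without overlap.

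The mitochondrial ribosome translates the few proteins that the mitochondrial genome encodes, all of them subunits of the respiratory chain and ATP synthase. Its RNAs are transcribed in the mitochondrion, whereas its proteins are encoded in the nucleus, made in the cytosol and imported, so both subunits are assembled from products of 2 genomes. Some of its proteins descend from the bacterial ribosome and others were added in mitochondria. Symbols do not always match the structure: the proteins of Mrps30 and Mrps18a sit in the large subunit, and that of Mrps36 is now known as a component of the alpha-ketoglutarate dehydrogenase complex.

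Mitoribosomal genes were short and well expressed in these cells. Their median level over the 21 libraries was 88.3 CPM, against 18.6 CPM for the 16149 genes tested in the treatment experiment, and their median transcript length was 1223 bases, against 2340. Per kilobase of transcript, Mrpl52 (443 CPM per kb), Mrpl33 (391 CPM per kb) and Mrpl42 (325 CPM per kb) stood highest. Mrpl53 (0.129 CPM per kb), Mrpl47 (11.9 CPM per kb) and Mrps25 (12.02 CPM per kb) stood lowest. GENCODE M21 places another gene, Gm42688, on the same strand over exons of Mrpl53, so the count of Mrpl53 may not give its level. Lengths are medians over annotated transcripts, so levels per kb are approximate. Mrps14, the counterpart of a bacterial small subunit protein near the head of the subunit, had the highest level not scaled by length, at 280.5 CPM.

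The summed level of the set moved with treatment in WT HSCs. The 77 genes together reached 6035, 5849 and 7717 CPM in the WT DMSO libraries and 12360, 11870 and 10900 CPM in the WT bortezomib libraries. All WT bortezomib libraries lay above every other library of the treatment experiment. In knockout-labelled HSCs the sums were 5611, 6405 and 5010 CPM with DMSO and 4811, 5026 and 7144 CPM with bortezomib, and these groups overlapped. Large subunit genes summed to 4394 ± 683 CPM (SD, n = 3) in WT DMSO and 7975 ± 527 CPM in WT bortezomib libraries. Small subunit genes summed to 2140 ± 348 CPM and 3738 ± 215 CPM in the same groups. These are shares of each library, so a change in the RNA of each cell and a change in the number of cells that express these genes cannot be told apart.

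**Figure D1:**
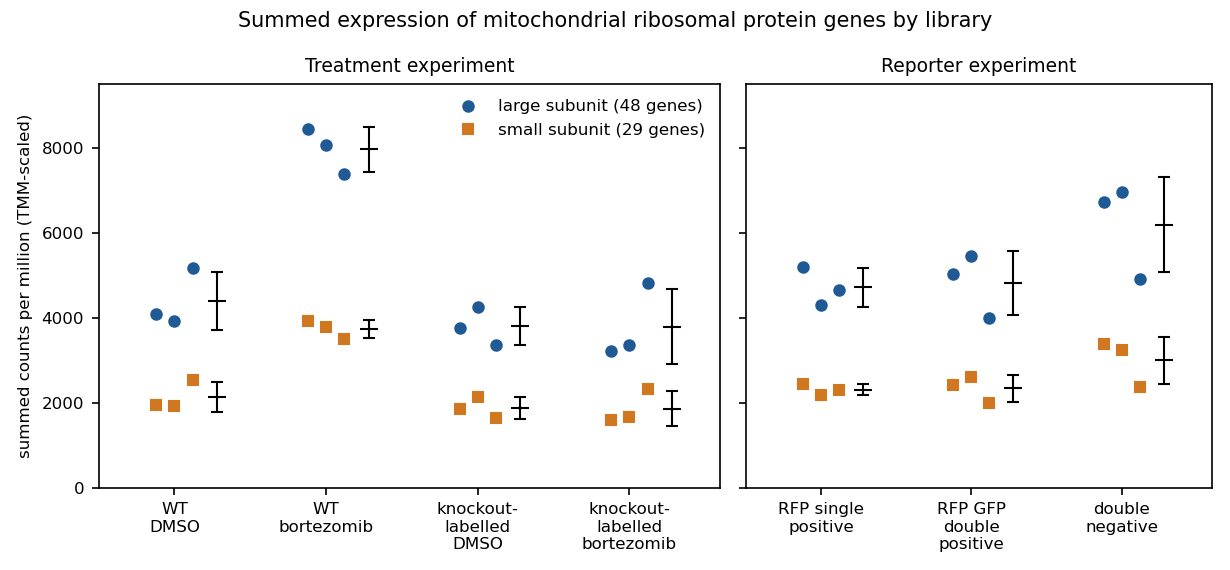
Summed TMM-scaled CPM of the 48 large subunit genes (circles) and 29 small subunit genes (squares) in each library, by group, with the mean and SD of 3 libraries as a black bar. Both subunits are highest in the WT bortezomib libraries, where the large subunit lies between 7402 and 8440 and the small subunit between 3502 and 3922.

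Bortezomib was first compared with DMSO in WT HSCs. Of the 76 tested mitoribosomal genes, 55 rose and 0 fell (edgeR quasi-likelihood test, Benjamini-Hochberg adjusted p under 0.05 over all genes), which is 72.4% of them, whereas 15.5% of all genes were called in either direction and 7.97% were called higher. The rise took in 36 of 47 large subunit genes, with a median log2 fold change of 0.80 over all 47, and 19 of 29 small subunit genes, with a median of 0.77. With subunits assigned by structure the order of the medians turned. They were then 0.776 for large (37 of 49 rose) and 0.795 for small subunit genes (18 of 26 rose). The median of all tested genes was -0.04. The 3 bortezomib libraries lay above the 3 DMSO libraries for 70 of the 76 genes, against 19.3% of all genes.

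Mrpl20, the counterpart of a bacterial protein that acts early in assembly of the large subunit, had the smallest p. It measured 87.7, 93.6 and 117 CPM in WT DMSO libraries and 291, 274 and 251 CPM in WT bortezomib libraries, which did not overlap. Its log2 fold change was 1.45 ± 0.21 (SE) with an edgeR adjusted p of 0.00207.

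Mrpl51 and Mrpl52, both proteins that mitochondria added to the large subunit, were also among the large subunit genes of smallest p. Mrpl51 measured 96.6, 94.6 and 120 CPM with DMSO and 203, 202 and 184 CPM with bortezomib, a log2 fold change of 0.92 ± 0.18 (edgeR adjusted p = 0.00509). Mrpl52 went from 133, 113 and 172 CPM to 367, 265 and 311 CPM, a log2 fold change of 1.17 ± 0.23 (edgeR adjusted p = 0.00627). In both genes the lowest bortezomib library stood well above the highest DMSO library. Mrpl35, which has a bacterial counterpart, was close to 81.3 ± 5.1 CPM (SD, n = 3) with DMSO and 138 ± 12 CPM with bortezomib, a log2 fold change of 0.76 ± 0.15 (edgeR adjusted p = 0.00625).

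Among small subunit genes, Mrps28 measured 76.3, 64.1 and 111 CPM with DMSO and 203, 203 and 177 CPM with bortezomib, a log2 fold change of 1.21 ± 0.25 (edgeR adjusted p = 0.00654). Mrps22, a protein found only in mitochondrial ribosomes, was less abundant. It measured 38.5, 36.9 and 53.0 CPM with DMSO and 83.1, 88.5 and 84.6 CPM with bortezomib, a log2 fold change of 1.00 ± 0.21 (edgeR adjusted p = 0.00758). The groups did not overlap for either gene. At the ends of the range of levels, Mrpl33 measured 125, 129 and 227 CPM with DMSO and 432, 390.1 and 281 CPM with bortezomib (log2 fold change 1.197 ± 0.262, edgeR adjusted p = 0.00909), and Mrps25, found only in mitochondria, 56.7, 50.3 and 73.5 CPM with DMSO and 116, 121 and 108 CPM with bortezomib (log2 fold change 0.93 ± 0.24, edgeR adjusted p = 0.0192).

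Mrps18a, Mrps18b and Mrps18c are paralogs whose proteins occupy different places in the ribosome, and all 3 rose. Mrps18c measured 72.6, 80.3 and 119 CPM with DMSO and 247, 189 and 170 CPM with bortezomib (log2 fold change 1.15 ± 0.23, edgeR adjusted p = 0.00593). Mrps18b measured 22.4, 19.7 and 20.4 CPM with DMSO and 36.5, 35.4 and 39.8 CPM with bortezomib (log2 fold change 0.84 ± 0.18, edgeR adjusted p = 0.00835). Mrps18a, the large subunit member of this family by structure, was 79.8 ± 11.6 CPM with DMSO and 132 ± 1 CPM with bortezomib (log2 fold change 0.73 ± 0.18, edgeR adjusted p = 0.0139). Differences between the 3 paralogs in the size of the rise were not tested.

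The genes that did not pass the test in WT HSCs were mostly displaced upward as well, since 75 of 76 fold changes were positive. The exception was Mrpl9, the counterpart of a bacterial protein that projects from the large subunit, at 54.7, 46.4 and 51.7 CPM with DMSO and 45.1, 49.6 and 49.1 CPM with bortezomib (log2 fold change -0.09 ± 0.18, edgeR adjusted p = 0.785). Mrps5 gave a log2 fold change of 0.17, Mrpl44 also 0.17, Mrpl49 0.21 and Mrpl10 0.24, none of them called. Mrps30, with a structural place in the large subunit, gave 0.43 (edgeR adjusted p = 0.0823), and Mrps36, the dehydrogenase component, gave 0.69 (edgeR adjusted p = 0.0538). Mrpl9, Mrpl44, Mrpl49 and Mrpl10 are named here after their values were seen.

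Proteins with a bacterial counterpart and proteins found only in mitochondria were both affected. Of the 46 genes with a bacterial counterpart 37 rose, with a median log2 fold change of 0.82, and of the 29 tested genes without one 18 rose, with a median of 0.68. The median was 0.82 for large and 0.86 for small subunit genes with a counterpart, and 0.68 for large and 0.61 for small subunit genes without one. This difference was not tested. Among the 45 genes that share no exon sequence with another annotated gene, 34 rose with a median of 0.80.

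The count in WT HSCs varied with the libraries left out. It was 22 without WT DMSO replicate 1, 15 without WT DMSO replicate 2 and 15 without WT bortezomib replicate 1, and 66 without the 3 libraries that stood apart. The share of all genes called in each of these fits is not given here. Whether the count moved more than that of all genes therefore cannot be told. Calls held under every alternative for 12 genes, Mrpl18, Mrpl20, Mrpl21, Mrpl30, Mrpl35, Mrpl36, Mrpl51, Mrpl52, Mrpl57, Mrps18c, Mrps22 and Mrps28; Mrps18b and Mrps18a lost theirs under at least 1. Other measures moved with this comparison. The summed level of the 10 HSC markers was 2923 to 3218 CPM in WT DMSO and 1715 to 2097 CPM in WT bortezomib libraries. Ly6a went the other way, at means of 314 CPM and 380 CPM. Cd48, the gene of the marker gated out in the sort, averaged 11.2 CPM and 39.8 CPM, while Flt3, another marker of cells sorted out, averaged 62.5 CPM and 44.8 CPM. The 10 erythroid markers summed to 73.2 to 98.6 CPM and 195 to 225.6 CPM, with Slc4a1 at 0 in the bortezomib libraries. Hbb-bt alone averaged 56.3 CPM and 169.6 CPM. The 9 T and NK cell markers summed to 87.0 to 92.7 CPM and 148 to 219 CPM, with Cd3d, Cd3e, Cd3g, Cd8a and Ncr1 at 0 in the bortezomib libraries. Nkg7 alone averaged 74.0 CPM and 166 CPM, while Klrb1c averaged 12.3 CPM and 11.04 CPM. Their part in the result was not tested.

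**Figure D2:**
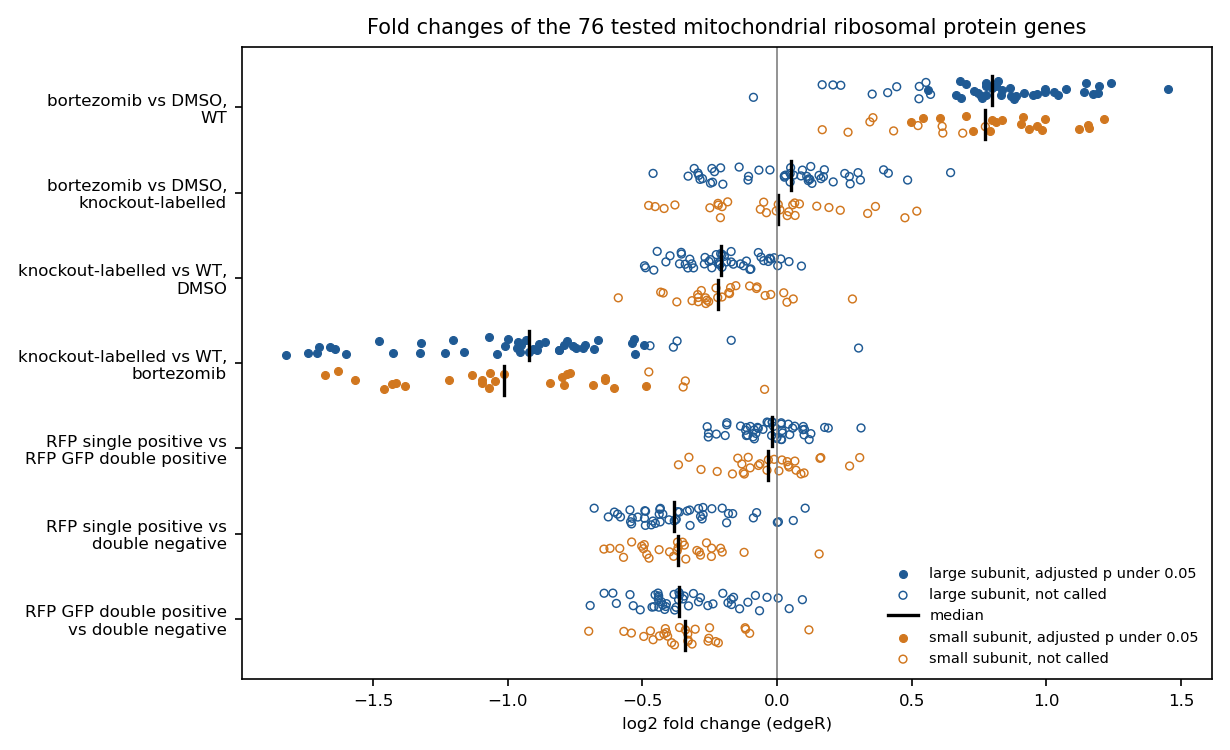
Log2 fold changes of the 76 tested genes (x axis, edgeR) in 7 comparisons (y axis), large subunit in blue and small subunit in orange; filled points have an adjusted p under 0.05, open points do not, and black bars are medians. Points lie to the right of 0 in WT HSCs given bortezomib (medians 0.80 and 0.77) and to the left in knockout-labelled against WT HSCs under bortezomib (medians -0.92 and -1.01), with the subunits side by side throughout.

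Promoter sequence was examined because so many of these genes moved together. RefSeq promoter windows of 300 bases (GRCm38.p6) were at hand for 68 of the 77 genes, and both strands were searched for 5 motifs known from promoters of genes for mitochondrial proteins or from stress responses. CCGGAAG, the core bound by ETS factors such as GABP, was in the windows of 36.8% of mitoribosomal genes, 19.5% of tested protein-coding genes and 9.93% of all genes with a window. The paired half-sites of NRF1 were in 19.1%, 11.4% and 5.19% of the same sets. AAGATGGC, bound by YY1, was in 17.6%, 5.12% and 3.19%. The E-box CACGTG was in 7.35%, 11.6% and 8.09%, and the cyclic AMP response element TGACGTCA in 2.94%, 3.54% and 2.03%. By subunit, the ETS core was in 33.3% of large and 42.3% of small subunit windows, and the NRF1 motif in 23.8% and 11.5%. Each motif was counted whether or not its match overlapped that of another, and a match is a description of the letters and not a binding site.

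Genes that rose in WT HSCs were found with and without each motif. With the ETS core, 19 of 24 tested genes rose and the median log2 fold change was 0.83, and without it 30 of 43 rose with a median of 0.76. With the NRF1 motif, 8 of 13 rose with a median of 0.82, and without it 41 of 54 rose with a median of 0.78. All 5 genes with the E-box rose, with a median of 1.00, as did 44 of 62 without it, with a median of 0.78. None of these differences was tested.

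The sequences below show the last bases upstream of the annotated exons for genes described above, on the strand of the gene, with any match to the ETS, NRF1, YY1 or E-box motif in capitals. Mrpl20 (chr4:155802778-155802877, plus strand), with the largest rise, holds an E-box. Mrpl52 (chr14:54426809-54426908, plus) and Mrps22 (chr9:98601680-98601779, minus) hold the ETS core in opposite orientations relative to the gene. Mrpl12 (chr11:120484513-120484612, plus), Mrpl17 (chr7:105811100-105811199, minus) and Mrpl9 (chr3:94443218-94443317, plus) hold NRF1 half-sites, so the same motif stands before genes that rose (Mrpl12 and Mrpl17) and before the 1 gene with a negative fold change.
Mrpl20: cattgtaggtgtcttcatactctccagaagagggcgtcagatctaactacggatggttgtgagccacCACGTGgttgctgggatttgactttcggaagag
Mrpl52: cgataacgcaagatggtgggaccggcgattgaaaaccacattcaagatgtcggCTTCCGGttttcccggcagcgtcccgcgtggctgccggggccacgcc
Mrps22: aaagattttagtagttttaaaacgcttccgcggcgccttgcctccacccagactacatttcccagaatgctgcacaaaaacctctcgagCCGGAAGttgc
Mrpl12: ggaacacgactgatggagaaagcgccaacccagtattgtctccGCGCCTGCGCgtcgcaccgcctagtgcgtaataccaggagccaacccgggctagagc
Mrpl17: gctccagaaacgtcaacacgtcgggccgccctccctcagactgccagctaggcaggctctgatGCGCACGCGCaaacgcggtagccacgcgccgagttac
Mrpl9: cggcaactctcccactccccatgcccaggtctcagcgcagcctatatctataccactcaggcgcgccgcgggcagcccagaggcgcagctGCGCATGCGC

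Mrpl12, whose bacterial counterpart forms the stalk that recruits translation factors and whose product also binds the mitochondrial RNA polymerase, measured 110, 92.7 and 101 CPM with DMSO and 243, 217 and 208 CPM with bortezomib in WT HSCs (log2 fold change 1.14 ± 0.27, edgeR adjusted p = 0.0134). Mrpl17, which has a bacterial counterpart near the exit of the peptide tunnel, measured 142, 140 and 193 CPM with DMSO and 335, 325 and 318 CPM with bortezomib (log2 fold change 1.04 ± 0.24, edgeR adjusted p = 0.0116). Neither gene's groups overlapped.

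Several mitoribosomal genes start back to back with another gene on the opposite strand. With a gap of at most 300 bases, 17 genes had such a neighbour. Of these 17 mitoribosomal genes 12 rose with bortezomib in WT HSCs, and their median log2 fold change was 0.81. Of the 17 neighbours 1 rose, 2 fell and the median was 0.05, a share called that lies near the 15.5% of all genes. The neighbour that rose was Psma2, a subunit of the proteasome core, beside Mrpl32. Psma2 gave a log2 fold change of 0.98 (edgeR adjusted p = 0.00608) and Mrpl32, a large subunit protein matured by a mitochondrial protease, 0.88 (edgeR adjusted p = 0.00917). Mrpl32 measured 75.4, 79.6 and 122 CPM with DMSO and 188, 174 and 148 CPM with bortezomib, without overlap.

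The bases that separate Mrpl32 from Psma2 (chr13:14613166-14613239, shown on the minus strand, that of Mrpl32) number 74 and hold none of the 4 motifs marked above, so all are in lower case.
Mrpl32: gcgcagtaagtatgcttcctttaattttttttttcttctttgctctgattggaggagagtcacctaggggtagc

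The neighbours that fell were Klc4, a kinesin light chain, beside Mrpl2 (log2 fold change -0.92, edgeR adjusted p = 0.0113, against 0.73 for Mrpl2), and Ppp1r10, a regulatory subunit of protein phosphatase 1, beside Mrps18b (-0.74, edgeR adjusted p = 0.0345, against 0.84 for Mrps18b). In both pairs the genes moved in opposite directions across gaps of 206 and 44 bases. The calls of Klc4 and Ppp1r10 did not hold under every alternative. Where the reads of overlapping transcripts meet, the count of a gene and that of its partner cannot be told apart, and no strand setting is given in the sources used here.

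**Figure D3:**
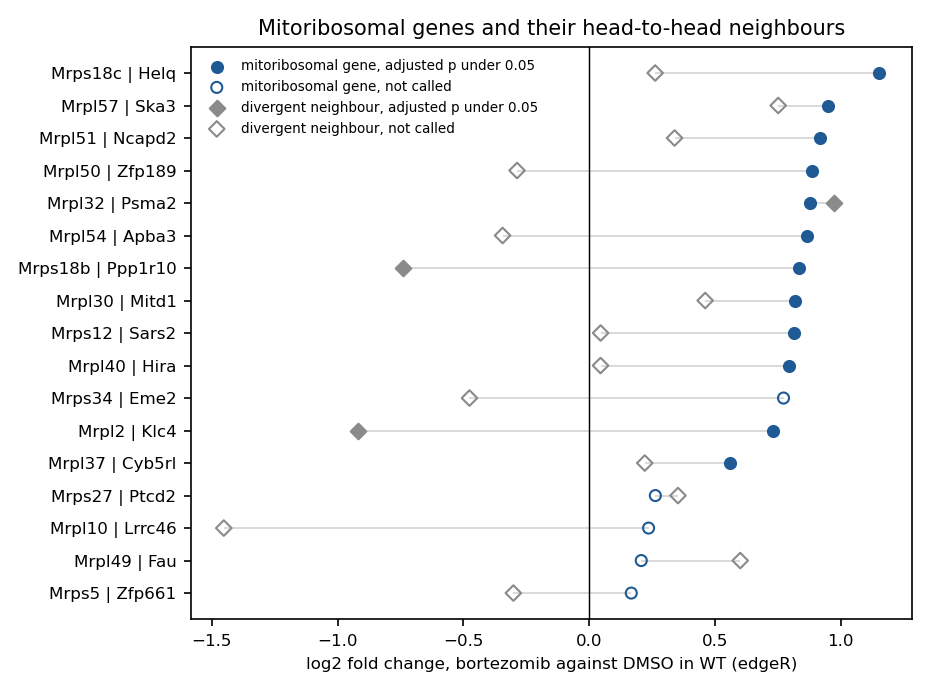
Log2 fold changes with bortezomib in WT HSCs (x axis, edgeR) for the 17 mitoribosomal genes that have a divergent neighbour (blue circles) and for the neighbour (grey diamonds), 1 pair per row, filled where the adjusted p is under 0.05. The blue points lie to the right of 0 in every pair, while the grey points scatter on both sides, with Psma2 the one neighbour that rose.

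Other genes of mitochondrial translation were counted in the same comparison, bortezomib against DMSO in WT HSCs, in which 7.97% of all genes were called higher and 15.5% in either direction. Of 5 mitoribosomal proteins that carry other symbols, 3 rose. Chchd1 measured 128, 136 and 230.4 CPM with DMSO and 419, 413 and 335 CPM with bortezomib (log2 fold change 1.24, edgeR adjusted p = 0.013), and Aurkaip1 gave a log2 fold change of 0.70 (edgeR adjusted p = 0.0105) and Gadd45gip1 0.72 (edgeR adjusted p = 0.0279). Of 26 factors for assembly of the ribosome and modification of its RNA 2 rose, Fastkd2 (log2 fold change 1.00), an RNA-binding protein of mitochondrial RNA granules, and Slirp (1.14), which stabilises mitochondrial mRNAs. Of 13 translation factors 1 rose, the elongation factor Tsfm (0.79). Of 20 mitochondrial aminoacyl-tRNA synthetases 3 rose, among them Yars2 (0.81) and Mars2 (0.77), and 1 fell, Ears2 (-1.13). The shares called in either direction were 7.69% for the assembly factors, 7.69% for the translation factors and 20% for the synthetases, the first of these lists and the second lying below the 15.5% of all genes. All calls in those 2 lists were rises, and their share lies near the 7.97% of all genes called higher.

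Of 11 genes for mitochondrial transcription and DNA maintenance 2 rose, Ssbp1 (0.87), which binds single-stranded mitochondrial DNA, and Tefm (0.77), a transcription elongation factor, a share of 18.2% that lies near the 15.5% of all genes called in either direction. Both calls were rises, and 7.97% of all genes were called higher. Among 10 regulators of mitochondrial gene programmes, Esrra (1.08) and Pprc1 (0.76) rose and the coactivator Ppargc1a fell (-2.34) from 2.75, 5.22 and 4.30 CPM to 0.524, 0.702 and 1.19 CPM, so that 30% of that list was called in either direction. Of the named genes of these lists Fastkd2 held its call under every alternative, and Chchd1, Aurkaip1, Gadd45gip1, Slirp, Tsfm, Yars2, Mars2, Ears2, Ssbp1, Tefm, Esrra, Pprc1 and Ppargc1a each lost it in at least 1, with the adjusted p reaching 0.130 for Gadd45gip1.

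The RNAs that the mitochondrial genome supplies to the same machinery did not rise. None of 13 mitochondrial mRNAs rose and 3 fell in WT HSCs given bortezomib, with a median log2 fold change of -0.44, where 15.5% of all genes were called in either direction. mt-Nd5, a complex I subunit, measured 624, 478 and 525 CPM with DMSO and 239, 244 and 329 CPM with bortezomib (log2 fold change -1.004, edgeR adjusted p = 0.00412). mt-Nd6 gave -1.12 (edgeR adjusted p = 0.00405) and mt-Nd4 gave -0.74 (edgeR adjusted p = 0.0392); the call of mt-Nd4 was lost in 5 of 14 alternatives. Neither of the 2 mitochondrial rRNAs was called, with log2 fold changes of -0.25 and 0.20. Of 82 tested cytosolic ribosomal protein genes 21 rose and 0 fell, with a median of 0.54, where 7.97% of all genes were called higher. These lists of mitochondrial RNAs and cytosolic ribosomal proteins were added after values had been seen.

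Bortezomib was next compared with DMSO in knockout-labelled HSCs. No mitoribosomal gene was called by edgeR, 7 had an unadjusted p under 0.05 and DESeq2 called 1 higher and 1 lower, while 3.63% of all genes were called by edgeR and 16.7% had an unadjusted p under 0.05. The median log2 fold change was 0.05 for large and 0.00 for small subunit genes, and 44 of 76 were positive. Knockout-labelled bortezomib replicate 3 stood above the other libraries of its group for many of these genes. Without it 4 genes were called, all lower, and without the 3 libraries that stood apart 13 were called, all lower. The 3.63% of all genes belongs to the main fit, and the shares of all genes in these other fits are not given here.

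The genes with the smallest p in that comparison went in different directions. Mrpl47, at the exit of the large subunit tunnel, measured 27.8, 30.8 and 23.1 CPM with DMSO and 42.2, 37.9 and 47.6 CPM with bortezomib (log2 fold change 0.64 ± 0.19, edgeR adjusted p = 0.0788). Mrps5, a small subunit protein with a bacterial counterpart, measured 84.9, 79.9 and 71.9 CPM with DMSO and 55.5, 58.3 and 59.3 CPM with bortezomib (log2 fold change -0.45 ± 0.15, edgeR adjusted p = 0.116). Both had groups that did not overlap. Mrps9, Mrpl9 and Mrps18c gave log2 fold changes of 0.47, 0.48 and 0.52, with edgeR adjusted p values of 0.149, 0.161 and 0.252.

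Genotype was then compared within each treatment. Under DMSO no mitoribosomal gene was called by edgeR or by DESeq2, edgeR called 0% of all genes, and 2 mitoribosomal genes had an unadjusted p under 0.05, as had 9% of all genes. The median log2 fold change of knockout-labelled against WT was -0.21 for large and -0.22 for small subunit genes, and 68 of 76 were negative. With the Xist share as a covariate the medians were -0.53 and -0.53, and still 0 genes were called. These DMSO groups did not overlap in the Xist share, so its part and that of genotype cannot be told apart here. The smallest p belonged to Mrpl46, a large subunit protein without a bacterial counterpart, at 72.3, 58.9 and 85.4 CPM in WT and 50.1, 51.5 and 52.4 CPM in knockout-labelled DMSO libraries (log2 fold change -0.49 ± 0.20, edgeR adjusted p = 0.491). Mrpl49, Mrpl13, Mrpl44 and Mrpl10 followed, with log2 fold changes of -0.36, -0.46, -0.45 and -0.32.

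Under bortezomib, knockout-labelled HSCs held less of nearly every mitoribosomal transcript than WT HSCs. Of 76 genes 67 were lower and 0 higher (edgeR), which is 88.2%, whereas 32.4% of all genes were called in either direction and 15.3% were called lower. The lower genes were 42 of 47 large subunit genes, with a median log2 fold change of -0.92, and 25 of 29 small subunit genes, with a median of -1.01, against 0.08 for all genes. With subunits assigned by structure they were 43 of 49 (median -0.905) and 23 of 26 (median -1.031). Groups did not overlap for 72 genes, all lower in knockout-labelled libraries, against 21.8% of all genes. Of the 67 calls, 54 held under every alternative, and the count lay between 56 and 71 when 1 library was left out. This comparison shares its WT bortezomib libraries with the comparison of treatments in WT HSCs.

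Mrpl42, a large subunit protein without a bacterial counterpart, had the smallest p. It measured 435, 432 and 334 CPM in WT bortezomib libraries and 99.3, 78.8 and 161 CPM in knockout-labelled bortezomib libraries, which lay far below. The log2 fold change was -1.82 ± 0.26 (edgeR adjusted p = 0.000215). In the DMSO libraries Mrpl42 was 175 ± 42 CPM in WT and 156 ± 36 CPM in knockout-labelled HSCs.

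Mrpl33, another of the most abundant per kb, measured 432, 390.1 and 281 CPM in WT and 88.1, 103 and 149 CPM in knockout-labelled bortezomib libraries (log2 fold change -1.70 ± 0.27, edgeR adjusted p = 0.000356). Mrpl18, the counterpart of a bacterial protein that binds ribosomal 5S RNA, measured 289, 285 and 266 CPM in WT and 71.0, 53.2 and 127 CPM in knockout-labelled bortezomib libraries (log2 fold change -1.74 ± 0.26, edgeR adjusted p = 0.000262). Mrpl20 was at 272 ± 20 CPM (SD, n = 3) in WT and 101 ± 29 CPM in knockout-labelled libraries, a log2 fold change of -1.43 ± 0.21 (edgeR adjusted p = 0.000246). Mrpl17 stood at 326 ± 9 CPM and 107 ± 44 CPM in these groups, a log2 fold change of -1.60 ± 0.24 (edgeR adjusted p = 0.000317). In Mrpl42, Mrpl33, Mrpl18, Mrpl20 and Mrpl17 alike the highest knockout-labelled library was replicate 3.

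In the small subunit, Mrps28 measured 203, 203 and 177 CPM in WT and 48.4, 46.0 and 87.7 CPM in knockout-labelled bortezomib libraries (log2 fold change -1.68 ± 0.25, edgeR adjusted p = 0.000273). Mrps12, whose bacterial counterpart contributes to the accuracy of decoding, measured 155, 148 and 137 CPM in WT and 54.8, 49.9 and 84.5 CPM in knockout-labelled libraries (log2 fold change -1.22 ± 0.19, edgeR adjusted p = 0.000356). Mrps24 gave a log2 fold change of -1.57 ± 0.26 (edgeR adjusted p = 0.000466). Mrps36, the dehydrogenase component with a small subunit symbol, gave -1.43 ± 0.23 (edgeR adjusted p = 0.000466), from 26.1, 24.0 and 29.5 CPM to 7.24, 10.7 and 11.5 CPM. Knockout-labelled libraries were the lower ones for each of these genes, without overlap.

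The 9 genes that were not called under bortezomib were again headed by Mrpl9, the 1 gene with a positive fold change, at 45.1, 49.6 and 49.1 CPM in WT and 48.8, 73.3 and 55.3 CPM in knockout-labelled libraries (log2 fold change 0.30 ± 0.18, edgeR adjusted p = 0.214). Mrps9 gave -0.05, Mrps5 gave -0.34, Mrps30 gave -0.35 (edgeR adjusted p = 0.115) and Mrpl47 gave -0.47 (edgeR adjusted p = 0.0685). Of the paralogs, Mrps18c gave -1.07, Mrps18a -0.80 and Mrps18b -0.77, all called. Among genes sharing no exon sequence with another gene 42 of 45 were lower. Genes with and without a bacterial counterpart were called in 41 of 46 and 25 of 29 cases, with medians of -0.98 and -0.80.

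**Figure D4:**
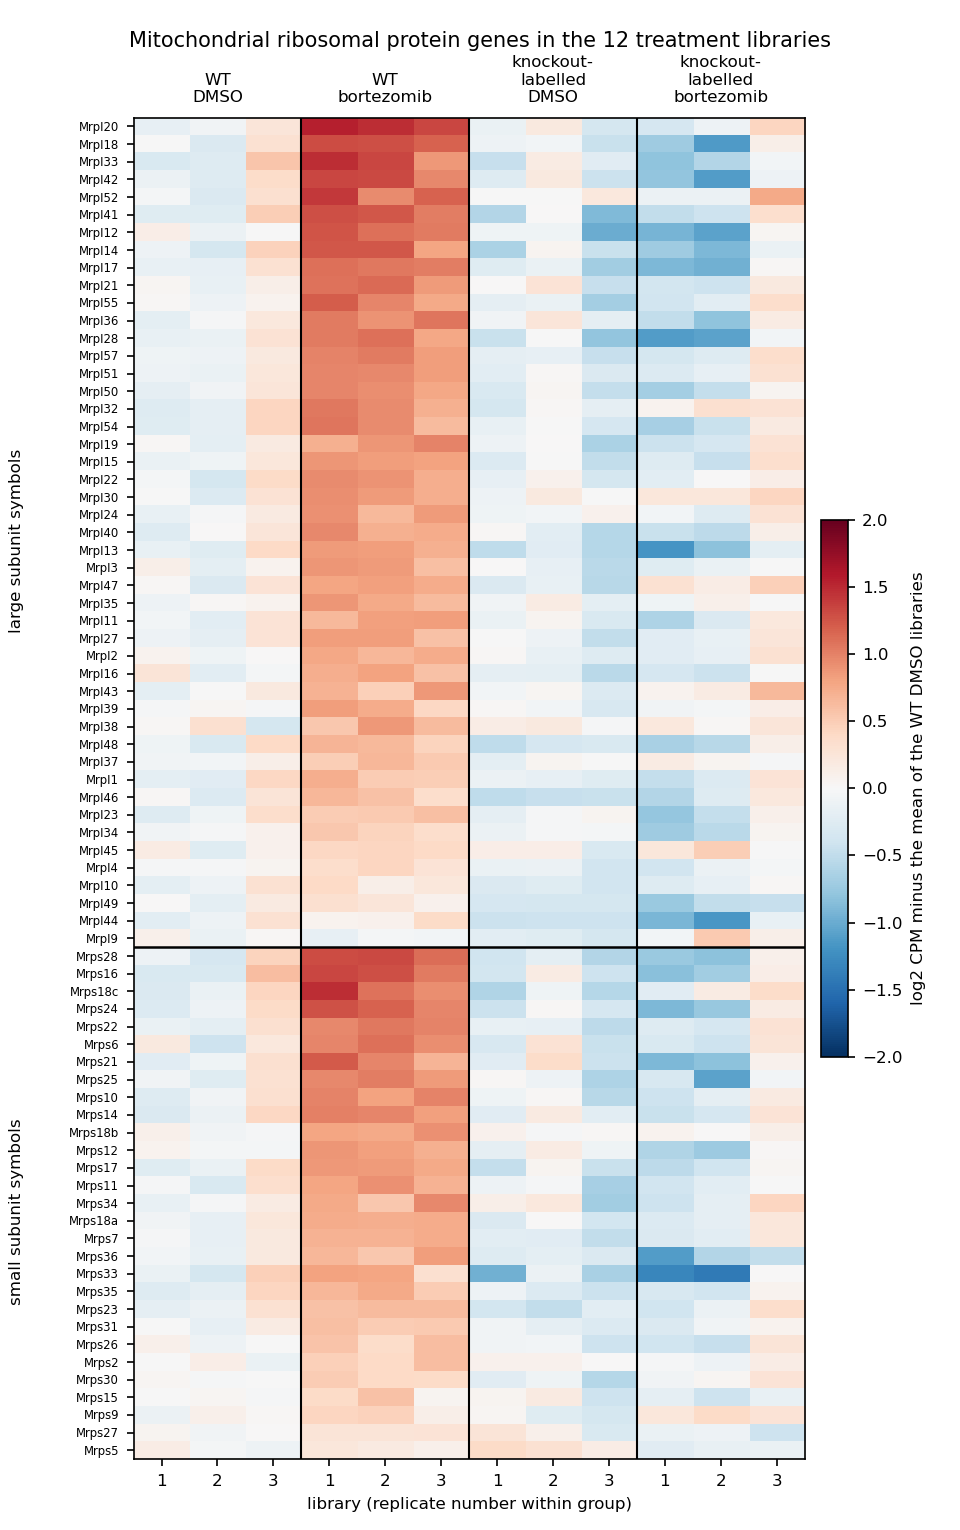
Log2(CPM + 0.5) of each of the 76 tested genes (rows, large subunit above, small subunit below, ordered by fold change with bortezomib in WT) in the 12 treatment libraries (columns), minus the gene's mean over the WT DMSO libraries; red is higher and blue lower. The 3 WT bortezomib columns are red nearly throughout, the last knockout-labelled bortezomib column is paler or redder than the other columns of its group, and Mrpl9 and Mrps5 at the foot of each block stay near white in the WT bortezomib columns.

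All 5 mitoribosomal proteins with other symbols were also lower in knockout-labelled HSCs under bortezomib, with a median log2 fold change of -1.10. Chchd1 gave -1.72 (edgeR adjusted p = 0.000644) and Aurkaip1 -1.13 (edgeR adjusted p = 0.000209). Of the assembly factors 5 were lower, among them Fastkd2 (-1.37), and 1 was higher, the pseudouridine synthase family member Rpusd4 (0.89), of 26. Of the 20 synthetases 6 were lower, including Yars2 (-1.08). Ssbp1 (-1.12), Tefm (-0.96) and the mitochondrial DNA packaging factor Tfam (-0.72) were lower, as 3 of 11. The shares called in either direction were 23.1% for the assembly factors, 30% for the synthetases and 27.3% for the genes of transcription and DNA maintenance, all below the 32.4% of all genes. All calls in the last 2 of these lists were lower, however. Their shares of 30% and 27.3% lie above the 15.3% of all genes called lower. Of 13 mitochondrial mRNAs 5 were higher and 0 lower, among them mt-Nd5 (1.11) and mt-Nd6 (1.23), where 2770 of all 16149 genes were called higher. Of 82 cytosolic ribosomal protein genes 40 were lower and 0 higher, with a median of -0.60, where 15.3% of all genes were called lower.

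Marker levels also differed between the genotypes under bortezomib. The HSC markers summed to 1715 to 2097 CPM in WT and 2466 to 2781 CPM in knockout-labelled libraries. Among them Ly6a averaged 380 CPM and 657 CPM and Kit 408 CPM and 605 CPM, while Hlf averaged 209.0 CPM and 209.6 CPM. The erythroid markers summed to 195 to 225.6 CPM and 59.4 to 82.3 CPM, and the T and NK cell markers to 148 to 219 CPM and 49.5 to 129 CPM. Single genes carried the erythroid sum and the T and NK cell sum, since Hbb-bt averaged 169.6 CPM in WT and 22.6 CPM in knockout-labelled libraries and Nkg7 166 CPM and 68.9 CPM. Other erythroid markers were at higher means in knockout-labelled libraries, among them Klf1 (3.64 CPM and 6.44 CPM) and Alas2 (0.270 CPM and 1.97 CPM). Cd48 averaged 39.8 CPM in WT and 8.86 CPM in knockout-labelled libraries, while Flt3 averaged 44.8 CPM and 110.3 CPM. Their part in the lower mitoribosomal levels was not tested.

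The difference between the genotypes in their response to bortezomib was tested as an interaction. It was called for 19 of 76 mitoribosomal genes, all with a lower response in knockout-labelled HSCs, which is 25%, whereas 9.05% of all genes were called in either direction and 4.71% as lower. The 19 were 12 of 47 large subunit genes and 7 of 29 small subunit genes, and the median log2 differences were -0.73 and -0.75. With subunits assigned by structure 12 of 49 large (median -0.725) and 6 of 26 small subunit genes (median -0.773) were called. The interaction was largest by p for Mrpl42 (-1.65 ± 0.36, edgeR adjusted p = 0.014), Mrpl20 (-1.33 ± 0.29, edgeR adjusted p = 0.0146) and Mrps12 (-1.19 ± 0.27, edgeR adjusted p = 0.0161). The count was 0 with the Xist share as a covariate, 61 without the 3 libraries that stood apart and between 0 and 50 when 1 library was left out, and none of the 19 calls held under every alternative. The 9.05% of all genes belongs to the main fit, and the shares of all genes in these alternatives are not given here. The DMSO libraries, in which the Xist share did not overlap between the genotypes, enter the interaction test.

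The large and small subunits were compared by the ratio of their summed CPM in each library. That ratio was 2.10, 2.02 and 2.04 in WT DMSO libraries, 2.15, 2.13 and 2.11 in WT bortezomib libraries, 2.05, 1.99 and 2.05 in knockout-labelled DMSO libraries and 2.01, 2.01 and 2.07 in knockout-labelled bortezomib libraries. The WT bortezomib libraries were the highest, by a difference of 0.05 on the log2 scale from WT DMSO, with group SDs of 0.013 and 0.030. The difference was 0.03 when genes were assigned to subunits by structure and 0.01 when log2 CPM was averaged over genes, so it was small beside the change of either subunit and depended on how the genes were weighted. In the reporter experiment the ratio was 2.05 ± 0.08 (SD, n = 3) in RFP single positive, 2.06 ± 0.05 in double positive and 2.07 ± 0.08 in double negative libraries.

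In the reporter experiment no mitoribosomal gene was called in any of the 3 pairs by edgeR or by DESeq2. For RFP single positive against double positive HSCs edgeR called 0% of all genes, and 0 mitoribosomal genes had an unadjusted p under 0.05, against 1.36% of all genes. The medians were -0.02 for large and -0.03 for small subunit genes. The comparisons with double negative HSCs, which share those libraries, leaned to lower levels in the labelled cells. RFP single positive against double negative HSCs gave medians of -0.38 and -0.37, 71 of 76 negative and 19 genes with an unadjusted p under 0.05, with 0% of all genes called and 7.54% at an unadjusted p under 0.05. Double positive against double negative HSCs gave -0.37 and -0.34, 72 of 76 negative and 12 genes with an unadjusted p under 0.05, with 0.0065% of all genes called and 8.55% at an unadjusted p under 0.05.

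Single genes varied between the libraries of a group. Mrpl36, which has a bacterial counterpart, measured 169, 152 and 154 CPM in RFP single positive libraries, 146, 197 and 133 CPM in double positive libraries and 248, 264 and 182 CPM in double negative libraries, so the lowest double negative library lay inside the range of the double positive group. Mrpl52 measured 202, 122 and 157 CPM, 223, 199 and 151 CPM, and 275, 303 and 192 CPM in the same order, and all 3 groups overlapped. Mrps18b measured 23.4, 23.0 and 24.0 CPM in RFP single positive and 42.6, 38.7 and 28.6 CPM in double negative libraries, without overlap (log2 fold change -0.64, edgeR adjusted p = 0.652). Double negative replicate 3 held 7271 CPM of mitoribosomal transcripts in all, close to the labelled groups, against 10100 and 10210 CPM in replicates 1 and 2. The T and NK cell markers summed to 140 to 203 CPM in double negative and 76.5 to 131 CPM in RFP single positive libraries, most of it Nkg7 (means of 164 CPM and 91.0 CPM). Cd48 averaged 30.95 CPM and 8.655 CPM in these groups, and Flt3 39.2 CPM and 30.8 CPM. The part of these markers was not tested.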

How the data were processed

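RNA from sorted mouse HSCs was sequenced as 21 libraries in 7 groups of 3, taken from the labels. The authors deposited raw counts per gene in a single table. Per the labels' protocols, RNA was extracted with an RNeasy Plus Micro kit and libraries followed SMART-seq2. Per the submitters' processing notes, Bowtie 1.0.0, STAR 2.6.1 and HTSeq 0.7.1 were used. GRCm38.p4 and GRCh38 are listed there as builds, without their roles. Which annotation release and strand setting served for counting is not given in the sources used here.

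Testing used edgeR 4.0.16 in R 4.3.3 (filterByExpr, TMM, quasi-likelihood F test), with 1 fit over the 12 treatment libraries (16149 genes) and another over the 9 reporter libraries (15375 genes). Calls were made at an adjusted p under 0.05 (Benjamini-Hochberg, over all genes of a comparison), and "rose" and "fell" refer to calls. CPM values use TMM-scaled library sizes. A floor of 3 counts lies between 0.0953 and 0.200 CPM. No pair of libraries of the same group agreed within sampling noise, and pairs across groups were not examined. Gene structures were taken from GENCODE M21, which matched all 77 genes, and 32 of them share exon sequence with another gene. The table also holds 5 pseudogene rows with such symbols, of which Mrpl23-ps1 averages 281 counts, so Mrpl23 is uncertain. The procedure was tested on simulated data. Plots were made in Python 3.11 (matplotlib 3.10.9).

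Members, lists and tests were chosen with earlier results of these data known. Named genes are, per comparison and subunit, up to 4 called in each direction with the smallest p, the 5 of smallest p where fewer than 5 passed, the Mrps18 paralogs, Mrps30, Mrps36, Mrpl12, the 3 highest and lowest per kb, and up to 3 called genes of each other list. Alternatives were relative log expression size factors, DESeq2 1.42.0, no filter, only the compared groups, a replicate block, length and GC offsets (splines of 4 degrees of freedom), the Xist share as covariate, leaving out 3 libraries and leaving out each library.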

Additional observations from a re-analysis of the deposited data

Results flagged for a closer look

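The effect of bortezomib differed between WT and knockout-labelled HSCs by a test of the difference itself (edgeR interaction) for 19 mitoribosomal genes. Among the large subunit genes the log2 difference was -1.65 for Mrpl42, -1.53 for Mrpl18, -1.33 for Mrpl20 and -1.33 for Mrpl36. Among the small subunit genes it was -1.38 for Mrps21, -1.30 for Mrps24, -1.25 for Mrps28 and -1.19 for Mrps12. Mrpl36 measured 112, 127 and 148 CPM with DMSO and 264, 239 and 268 CPM with bortezomib in WT HSCs, and 123, 152 and 113 CPM with DMSO and 90.7, 73.2 and 144 CPM with bortezomib in knockout-labelled HSCs. With the Xist share as a covariate 0 of these calls remained, with log2 differences of -1.359 for Mrpl42, -1.296 for Mrpl18, -1.201 for Mrpl36 and -1.051 for Mrps12 in that fit, and the cause was not tested.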

How the results depend on the processing

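The direction of the mitoribosomal change in WT HSCs and between genotypes under bortezomib was the same in every alternative run, with 15 to 66 and 56 to 71 genes called. Leaving out 1 library gave 15 to 56 genes for bortezomib in WT, 0 to 4 for bortezomib in knockout-labelled HSCs and 0 to 50 for the interaction. For bortezomib in knockout-labelled HSCs DESeq2 called 2 genes and leaving out the 3 libraries apart gave 13. The interaction count was 33 with DESeq2, 32 with length and GC offsets, 0 with the Xist share as covariate and 61 without the 3 libraries apart. It was 7 without knockout-labelled DMSO replicate 1, 0 without replicate 2, 5 without knockout-labelled bortezomib replicate 1 or 2, 50 without its replicate 3, 5, 1 and 30 without WT DMSO replicates 1, 2 and 3, and 2 and 5 without WT bortezomib replicates 1 and 2. Shares of all genes called are given for the main fits only, so these counts cannot be set against the change in all genes. The cause of these shifts was not tested.

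The difference in the log2 ratio of large to small subunit, with subunits by structure and then with mean log2 CPM, was 0.0277 and 0.014 for bortezomib in WT, 0.0325 and 0.0394 for bortezomib in knockout-labelled HSCs, -0.0219 and 0.012 between genotypes under bortezomib, and 0.0048 and 0.0254 for the interaction. The main values were 0.0539 for bortezomib in WT and -0.0698 between genotypes under bortezomib. The interaction of Mrps30, not called, turned to 0.042 with the Xist share and ranged from -0.197 to 0.041 when 1 library was left out (positive without knockout-labelled DMSO replicate 2 or bortezomib replicate 1). That of Mrpl47, not called, ranged from -0.272 to 0.005 (positive without WT DMSO replicate 2).

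The main fits did not pair the samples by replicate number. The correlation of deviations between same-numbered libraries ran from -0.028 to 0.099 in the treatment experiment. It ran from -0.014 to 0.165 in the reporter experiment, where 8 of 9 were positive but not every pair passed 0.1. The Xist share of the reporter libraries also followed the replicate number. In replicate 2 it was 99.939% in RFP single positive, 97.358% in double positive and 88.068% in double negative HSCs. Replicates 1 and 3 of these groups held at most 10.168%. The labels do not say whether same-numbered reporter libraries came from the same mice, and the main fit treated them as independent. With the replicate number as a block the counts were 58 for bortezomib in WT, 68 between genotypes under bortezomib, 26 for the interaction and 0 elsewhere. Mrpl53 was the only gene of the set left out for low counts, and another gene overlaps its exons.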
